A study of Arabidopsis thaliana with 8 samples.

Results

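RNA-seq libraries of unstressed *Arabidopsis thaliana* seedlings were compared between the second round of libraries (codes P2, Q2 and R2) and the first (M2, N2 and O2). Each round holds 1 library of the wild type Col-0, 1 of *MYB5* OE and 1 of *TT2* OE, so that 6 of the 8 libraries of the series enter and genotype is a term in the comparison. The remaining libraries, S2 (Col-0) and U2 (*TT2* OE), form the third round and are given beside the others where they bear on a gene. The rounds were chosen by the clustering of these same counts, in which libraries group by round and not by genotype. Every difference between rounds is therefore a description of these 6 libraries, and no test is attached to it.

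All plants were 6 days old and were sampled as whole seedlings, grown in vitro on Murashige and Skoog agar with an 8 h photoperiod at 22 °C and no treatment. The *MYB5* OE and *TT2* OE plants carry an additional copy of *MYB5* or *TT2*, MYB transcription factors best known from the seed coat, driven by the constitutive promoter of cauliflower mosaic virus, and Col-0 carries none. Which transgenic line was sequenced, how many seedlings were pooled and the hour of harvest are not given in the sources used here. A difference in the hour of harvest and any other difference between the rounds, in growth, RNA extraction, library preparation or sequencing, cannot be told apart.

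As background, the plant circadian clock is a loop of transcription factors that act at successive times of day. *CCA1* and *LHY* are transcribed around dawn and their proteins repress evening genes through a short DNA sequence called the evening element. *PRR9*, *PRR7*, *PRR5* and *TOC1* follow one after another through the day and repress *CCA1* and *LHY*, and *GI*, *ELF3*, *ELF4* and *LUX* are most active towards dusk. Photosynthesis, starch turnover, cold acclimation and growth are all known to follow this clock in seedlings.

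The libraries of the first and second rounds held between 37575146 and 48428855 counts assigned to genes, and the 10 genes with most counts took 7.57% to 9.82% of them. *TT2* and *MYB5* were checked against the labels first. CPM are counts per 1e6 of the library total after scaling (TMM). *TT2* stood at 504 and 462 CPM in the first- and second-round *TT2* OE libraries. In the other 4 libraries it stood at no more than 0.309 CPM. *MYB5* stood at 276 and 251 CPM in the first- and second-round *MYB5* OE libraries and at no more than 0.105 CPM in the others. Every library thus carried the transcript its label names, at a like level in both rounds. The standard deviation across genes of the log2 difference was 0.319 to 0.412 for the 6 pairs of libraries within a round and 0.796 to 0.945 for the 9 pairs between rounds.

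Of 28496 genes in the count table, 20003 had enough counts to be kept. A gene is called higher or lower in the second round here when its level was at least 2-fold apart in the same direction in each of the 3 genotypes. By this rule 1070 genes were higher, which is 5.35% of the genes kept, and 696 were lower, which is 3.48%. Since the rounds were chosen on these counts, nothing is read from these shares, and they serve only as the background for the gene groups below. The rule makes overlap between the rounds unlikely for a gene it calls, so a lack of overlap below adds no support. The members just inside and just outside the limit differed little, with a smallest log2 difference of 1.001 for AT5G13830 and 1.000 for AT4G26990. As a share of the scaled library total, the genes called higher made up 3.53% to 3.81% in the first round. In the second round they made up 10.8% to 12.5%. The genes called lower made up 6.62% to 7.47% in the first round and 1.81% to 2.03% in the second.

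Each gene also has a log2 ratio of the second to the first round, adjusted for genotype and given below with its standard error (edgeR, 3 libraries per round). Over all genes kept the median log2 ratio was -0.01, with 9834 of 20003 genes above 0 and 10169 below. The 3 genotypes showed much the same difference: across genes, the second-minus-first difference in log2 CPM correlated at 0.869 between Col-0 and *MYB5* OE, 0.859 between Col-0 and *TT2* OE and 0.854 between *MYB5* OE and *TT2* OE, each over 20003 genes, which are not independent replicates. Of the genes at least 2-fold apart in both Col-0 and *TT2* OE, 1914 lay in the same direction and 19 in opposite directions. No gene averaging 5 CPM or more was 2-fold higher in 1 genotype and 2-fold lower in another.

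**Figure D1:**
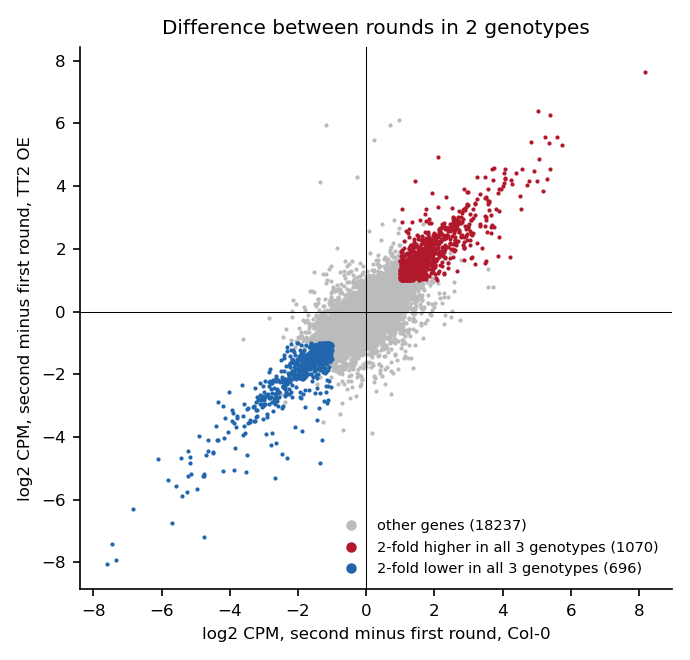
Difference in log2 CPM between the second and the first round in Col-0 (horizontal axis) and in TT2 OE (vertical axis), 1 point per gene kept; red points are the 1070 genes at least 2-fold higher in all 3 genotypes, blue points the 696 genes at least 2-fold lower, and grey points the remaining genes. The coloured points lie outside 1 log2 unit on both axes because the rule put them there, and most genes far from 0 in one genotype lie on the same side in the other.

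Throughout, the values of a round are given in the order Col-0, *MYB5* OE and *TT2* OE. The dawn genes of the clock were the list with the highest median difference. Of 14 morning clock genes, 9 were higher and 1 was lower in the second round, with a median log2 ratio of 2.34. *LHY* stood at 1.00, 1.23 and 1.62 CPM in the first round and 304, 330.5 and 334 CPM in the second, which gave the largest log2 ratio of any gene whose mean was 5 CPM or more, log2 ratio 7.97 ± 0.14. *CCA1*, its partner, stood at 5.09, 3.83 and 5.63 CPM in the first round and 212, 234 and 237 CPM in the second (log2 ratio 5.56 ± 0.13). For both genes the spread among the 3 genotypes of a round was small beside the gap between rounds. *RVE8*, a related factor that activates evening genes, stood at 1.44, 1.70 and 1.81 CPM in the first round and 49.5, 50.9 and 53.4 CPM in the second (log2 ratio 4.96 ± 0.11).

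The LNK proteins are coactivators that work with *RVE8*, and all 4 of their genes were higher in the second round. *LNK3* stood at 2.70, 2.41 and 1.91 CPM in the first round and 46.1, 49.5 and 45.6 CPM in the second, *LNK2* at 106, 90.3 and 132 CPM in the first round and 723, 837 and 925 CPM in the second. *LNK1* and *LNK4* had log2 ratios of 1.68 and 2.44. *PRR9*, the first of the PRR repressors to act in the day, stood at 7.30, 6.07 and 5.51 CPM in the first round and 43.2, 41.8 and 42.8 CPM in the second (log2 ratio 2.77 ± 0.10), whereas *PRR7* stood at 331, 324 and 382 CPM in the first round and 145, 171 and 185 CPM in the second (log2 ratio -1.05 ± 0.09) and missed the 2-fold limit in *MYB5* OE, so that without the *MYB5* OE libraries 2 morning genes were lower in place of 1. *RVE1* was higher (log2 ratio 2.23 ± 0.11) and *RVE2* was the 1 morning gene that was lower (log2 ratio -1.87 ± 0.14). *RVE4*, AT5G52660 and *RVE7* stayed within 2-fold.

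The evening genes of the clock lay on the opposite side. Of 13 evening clock genes none was higher and 10 were lower in the second round, with a median log2 ratio of -3.52. *TOC1* stood at 201, 228 and 246 CPM in the first round and 18.9, 18.6 and 21.4 CPM in the second (log2 ratio -3.52 ± 0.09), and *PRR5*, which is expressed just before it, at 146, 156 and 165 CPM in the first round and 3.84, 2.81 and 4.35 CPM in the second (log2 ratio -5.41 ± 0.12). Neither gene had a second-round library near any first-round library, which the 2-fold rule makes likely. *FKF1*, a blue-light receptor that promotes flowering, stood at 79.5, 85.7 and 70.0 CPM in the first round and 0.409, 0.438 and 0.367 CPM in the second (log2 ratio -7.59 ± 0.13).

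*GI*, the partner of *FKF1*, stood at 289, 295 and 296 CPM in the first round and 63.4, 54.6 and 66.7 CPM in the second (log2 ratio -2.26 ± 0.09). The evening complex of *ELF3*, *ELF4* and *LUX* represses growth genes in the early night. Its genes stood at 73.8, 74.7 and 79.3 CPM in the first round and 17.5, 17.1 and 21.5 CPM in the second for *ELF3*, 40.3, 39.9 and 35.4 CPM in the first round and 1.25, 0.507 and 0.656 CPM in the second for *ELF4* and 85.4, 102 and 94.99 CPM in the first round and 3.72, 3.64 and 4.17 CPM in the second for *LUX*. The first- and second-round libraries of the complex did not overlap, which the 2-fold rule makes likely for genes it calls. *BOA*, a relative of *LUX*, had a log2 ratio of -4.07, *PRR3* one of -4.44 and the histone demethylase gene *JMJD5* one of -2.36. The 3 evening genes within 2-fold were *CHE* and the F-box genes *ZTL* and *LKP2*, and *ZTL* in particular is known for a steady transcript level.

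**Figure D2:**
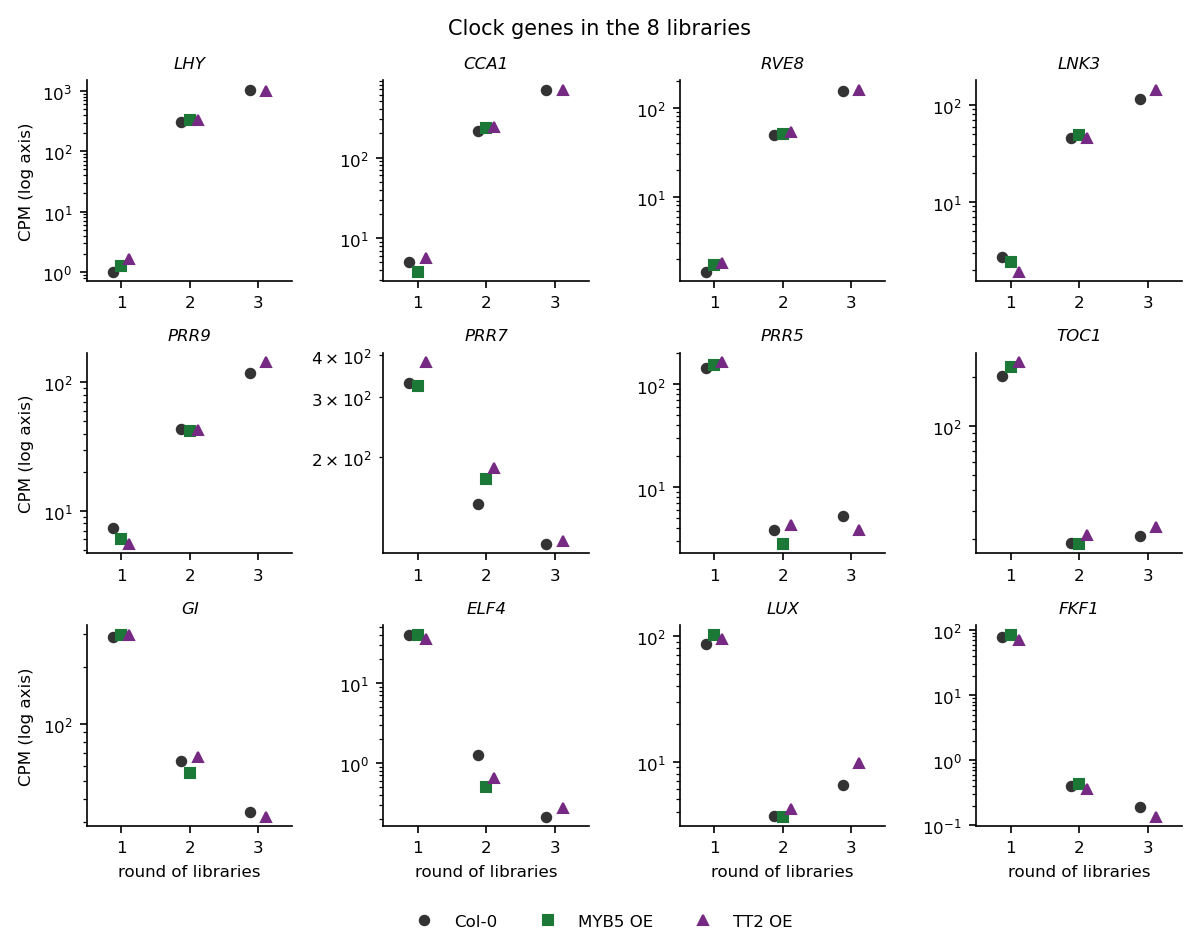
Levels of 12 clock genes in CPM (logarithmic vertical axes, a separate scale per gene) in the first, the second and the third round of libraries; black circles are Col-0, green squares MYB5 OE and purple triangles TT2 OE, 1 library each, with no MYB5 OE library in the third round. LHY, CCA1, RVE8, LNK3 and PRR9 are higher in the second round than in the first and higher still in the third, and PRR5, TOC1, GI, ELF4, LUX and FKF1 are far lower in the second round than in the first.

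The evening element is shown where it lies upstream of these genes, since the promoters are a property that the choice of rounds did not use. Its letters AAAATATCT were searched on both strands of the 250 bases before the annotated start of each gene (RefSeq annotation of TAIR10.1). They were found upstream of 5 of the 13 evening clock genes kept (*TOC1*, *PRR5*, *LUX*, *BOA* and *FKF1*), 4 of the 11 clock output genes (*COR27*, *GRP7*, *GRP8* and *CAT3*) and 1 of the 14 morning genes (*RVE7*). Each sequence below is read 5′ to 3′ on the strand where the element reads forward, with the element in capitals. A match describes the sequence and does not show that a factor binds there.
*TOC1* (chr5:24674802-24674830, minus strand): catcttggagAAAATATCTcatgatattt
*PRR5* (chr5:8358715-8358743, plus strand): tggagaaaagAAAATATCTagaaaaaatc
*LUX* (chr3:17182979-17183007, plus strand): tagaagatctAAAATATCTagctaactcg
*BOA* (chr5:24003835-24003863, minus strand): tagataatctAAAATATCTtttacccgca
*FKF1* (chr1:25508443-25508471, minus strand): atattccgagAAAATATCTagcctactca
*GRP7* (chr2:9266594-9266622, plus strand): gggacaaagaAAAATATCTcagtggagca
*COR27* (chr5:17199931-17199959, plus strand): cttcaactgcAAAATATCTtccaccgtcc
*RVE7* (chr1:6308275-6308303, minus strand): taatcacaaaAAAATATCTtcttcataat

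The elements of *LUX*, *BOA*, *COR27* and *RVE7* start 53, 43, 39 and 50 bases before the annotated start, and those of *TOC1*, *PRR5* and *FKF1* start 151, 187 and 186 bases before it. *GRP7* holds 3 copies and *COR27* holds 2 in the window, of which 1 each is shown. Over all genes kept with a 250-base window, 497 of 19926 held the element, which is 2.49%. Among genes lower in the second round 89 of 695 held it (12.8%), and among genes higher 16 of 1066 held it (1.5%). The 184 genes at least 4-fold lower in every genotype held it in 19.6% of cases. *RVE7*, which holds the element, was within 2-fold (log2 ratio -0.52 ± 0.08), and *GI* and *ELF4*, which do not hold these letters in the window, were among the genes lower.

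Other short elements differed less between the directions. The CCA1-binding site AAAAATCT was in 6.78% of all genes, 5.91% of the genes higher and 9.06% of the genes lower. The I-box GATAAG, a light-response element, was in 12.5% of all genes, 10.3% of the genes higher and 17.1% of the genes lower. The G-box CACGTG, bound by PIF and HY5 factors, was in 7.44% of all genes, 10.4% of the genes higher and 8.78% of the genes lower. The telo-box AAACCCTA was in 3.43% of all genes, 2.63% of the genes higher and 2.59% of the genes lower. Site II elements (TGGGCC or TGGGCT), typical of genes of growing cells, were in 22.0% of all genes, 14.2% of the genes higher and 132 of the 695 genes lower. All were searched on both strands, none of the letter strings contains another, and a gene can hold several of them.

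**Figure D3:**
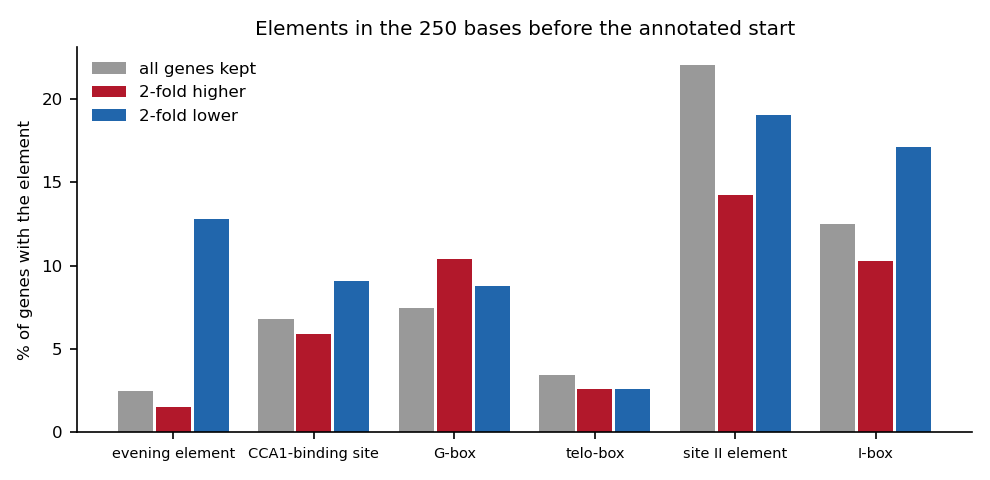
Share of genes (per cent, vertical axis) that hold each of 6 short sequence elements in the 250 bases before the annotated start, for all genes kept (grey), genes 2-fold higher in the second round in every genotype (red) and genes 2-fold lower (blue). The evening element is in 12.8% of the genes lower, 1.5% of the genes higher and 2.49% of all genes, and the remaining elements lie closer together.

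Clock outputs were split. Of the 11 output genes kept, 5 were higher and 5 lower. *CDF1*, *CDF2*, *CDF3* and AT1G69570, which encode DOF zinc finger proteins of the kind that hold back flowering by day, were higher, with log2 ratios of 2.096, 1.43, 1.57 and 2.69. *CO*, the flowering activator that CDF proteins repress, stood at 3.09, 4.96 and 4.18 CPM in the first round and 0.123, 0.207 and 0.0787 CPM in the second (log2 ratio -4.85 ± 0.29). *FT*, the target of *CO*, had too few counts to be kept. *GRP7*, an RNA-binding protein that peaks in the evening, stood at 1362, 1722 and 1140.5 CPM in the first round and 60.7, 45.6 and 50.1 CPM in the second (log2 ratio -4.74 ± 0.16), and its close relative *GRP8* had a log2 ratio of -1.35. *COR27* and AT4G33980 stood at 31.7, 43.1 and 41.2 and 25.3, 31.2 and 24.4 CPM in the first round and at 1.70, 1.98 and 5.11 and 0.409, 0.0461 and 0.551 CPM in the second. The catalases, which remove hydrogen peroxide, went in opposite directions: *CAT2* stood at 604, 505 and 690.1 CPM in the first round and 2463, 2797 and 2823 CPM in the second (log2 ratio 2.18 ± 0.12) and *CAT3* had a log2 ratio of -0.99.

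The B-box family, to which *CO* belongs, was examined after its values had been seen. Of 25 members kept, 11 were higher and 5 lower, beside 5.35% and 3.48% of all genes. The members higher were led by *BBX30*, *COL2*, *BBX32*, *BBX16* and *COL1*. *COL2* stood at 2.78, 2.65 and 3.28 CPM in the first round and 138, 190.3 and 158 CPM in the second (log2 ratio 5.79 ± 0.13), and *BBX32*, a repressor of light responses, at 0.154, 0.197 and 0.357 CPM in the first round and 5.25, 6.59 and 6.63 CPM in the second (log2 ratio 4.67 ± 0.24). *BBX30* had only 3 counts in the first round against 204 in the second, a ratio of 66.3 with an exact 95% interval of 22.4 to 324 that covers counting error only. The members lower were *COL9* (log2 ratio -5.33 ± 0.12), *BBX8* (log2 ratio -5.07 ± 0.11), *CO*, *BBX13* and AT2G47890. One family thus held some of the most positive and some of the most negative log2 ratios.

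Light signalling genes leaned to the positive side, with 9 of 20 higher, 1 lower and a median log2 ratio of 1.19. The photoreceptor genes *PHYA*, *PHYB*, *CRY1* and *CRY2* all stayed within 2-fold, with log2 ratios from -0.86 to 0.29. *HY5*, the central activator of light responses, had a log2 ratio of 0.27, whereas its homologue *HYH* stood at 5.35, 5.55 and 7.38 CPM in the first round and 40.5, 52.6 and 48.96 CPM in the second (log2 ratio 2.96 ± 0.11). *RUP2*, which switches off the UV-B receptor, stood at 4.68, 4.91 and 5.07 CPM in the first round and 39.4, 44.2 and 38.9 CPM in the second (log2 ratio 3.06 ± 0.10). The early light-inducible proteins protect the photosynthetic membrane in excess light. *ELIP1* stood at 1.62, 0.786 and 1.83 CPM in the first round and 21.3, 12.5 and 12.7 CPM in the second and *ELIP2* at 0.617, 0.540 and 0.568 CPM in the first round and 12.9, 11.5 and 10.2 CPM in the second. *BBX22*, a partner of *HY5*, was the 1 gene of the list that was lower (log2 ratio -2.11 ± 0.08).

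PIF transcription factors promote stem growth in the dark and in shade. Of 16 genes of the PIF and shade list 5 were higher and none lower, with a median log2 ratio of 0.83. *PIF5* stood at 108, 99.8 and 108 CPM in the first round and 244, 293 and 301 CPM in the second and *PIF7* at 27.2, 24.0 and 28.8 CPM in the first round and 62.6, 82.2 and 70.7 CPM in the second, and *PIL1*, a shade marker, at 0.309, 0.369 and 0.441 CPM in the first round and 2.86, 3.09 and 2.86 CPM in the second (log2 ratio 2.96 ± 0.26). *PIF4* (log2 ratio 0.83 ± 0.10) and *PIF3* (log2 ratio 0.14 ± 0.09) did not reach the 2-fold limit in every genotype. *XTR7* and *PAR1*, further shade markers, had negative log2 ratios of -0.97 and -0.94, so that the list did not move as one.

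Light-harvesting proteins carry chlorophyll at the photosystems and are among the most abundant plant transcripts. As a group they differed little, with 2 of 21 higher, 1 lower (2 without the *TT2* OE libraries) and a median log2 ratio of -0.22. Within the group *LHCB2.3* and *LHCB2.2* were higher, *LHCB2.3* at 430.4, 409 and 411 CPM in the first round and 1586, 1990.1 and 1901 CPM in the second (log2 ratio 2.12 ± 0.11) and *LHCB2.2* with a log2 ratio of 1.23. *LHCB1.4* was lower, at 8291, 10315 and 6881 CPM in the first round and 2916, 2420.3 and 3274 CPM in the second (log2 ratio -1.56 ± 0.17), and its neighbour *LHCB1.5* had a log2 ratio of -1.23. The *LHCB1* genes are near-identical in sequence, and so are the *LHCB2* genes, so how reads were split within each subfamily is uncertain.

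Chlorophyll synthesis had 3 of 13 genes higher and 1 lower. *GUN4*, which stimulates the magnesium chelatase, stood at 119, 107 and 119.9 CPM in the first round and 544, 620.2 and 659 CPM in the second (log2 ratio 2.40 ± 0.10). *HEMA1*, which catalyses the committed step, and *CAO*, which makes chlorophyll b, had log2 ratios of 1.59 and 1.69. *PORB*, one of the light-dependent reductases, stood at 756, 777 and 631 CPM in the first round and 123, 139 and 111 CPM in the second (log2 ratio -2.54 ± 0.09). Its relatives *PORA* and *PORC* had log2 ratios of 0.84 and 0.61, so *PORB* alone among the reductases was lower by the 2-fold rule.

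Starch is built in the light and broken down at night, and the genes of its breakdown had the lowest median after the evening clock. Of 18 starch breakdown genes kept, 10 were lower and 2 higher, with a median log2 ratio of -1.76. *SEX1* and *PWD* phosphorylate the granule surface to open it for enzymes. *SEX1* stood at 822, 742 and 693 CPM in the first round and 84.4, 75.3 and 83.8 CPM in the second (log2 ratio -3.21 ± 0.10) and *PWD* at 278, 251 and 229 CPM in the first round and 24.6, 22.9 and 26.46 CPM in the second (log2 ratio -3.36 ± 0.10). *SEX4*, which removes the phosphate again, stood at 44.7, 44.6 and 45.3 CPM in the first round and 4.72, 3.64 and 4.38 CPM in the second (log2 ratio -3.40 ± 0.11).

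Downstream enzymes showed the same sign. The glucan phosphorylase gene *PHS2* stood at 484, 450.1 and 405 CPM in the first round and 29.2, 30.6 and 28.4 CPM in the second (log2 ratio -3.92 ± 0.10), and the disproportionating enzyme gene *DPE1* at 77.9, 78.2 and 75.6 CPM in the first round and 7.97, 6.77 and 6.71 CPM in the second (log2 ratio -3.43 ± 0.10). All first-round libraries lay far above all second-round libraries for both genes, which were called lower by the 2-fold rule on these values. *ISA3*, *AMY3*, *DPE2*, *PHS1* and *BAM4* had log2 ratios of -3.07, -2.03, -1.89, -1.84 and -1.67. The 2 genes higher were beta-amylase family members, *BAM9* at 12.3, 10.8 and 11.8 CPM in the first round and 112, 112 and 130.0 CPM in the second (log2 ratio 3.34 ± 0.09) and *BAM1* (log2 ratio 1.60 ± 0.09). *BAM3*, the main beta-amylase of leaves at night, had a log2 ratio of 0.78 and was not 2-fold apart in every genotype.

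Starch synthesis was less uniform, with 4 of 14 genes lower, 1 higher and a median log2 ratio of -0.35. *GBSS1*, the granule-bound synthase that makes amylose, was the gene higher, at 5.71, 3.91 and 4.08 CPM in the first round and 219, 204 and 194 CPM in the second (log2 ratio 5.51 ± 0.11). *SS4*, which starts new granules, stood at 212, 190.1 and 202 CPM in the first round and 38.3, 41.7 and 47.7 CPM in the second (log2 ratio -2.25 ± 0.10), and the branching enzyme gene *SBE2.1* at 182, 172 and 157 CPM in the first round and 37.3, 32.7 and 34.0 CPM in the second (log2 ratio -2.29 ± 0.08). *PGM1* and *ISA1* had log2 ratios of -1.72 and -1.20. *GBSS1* therefore lay opposite to the other starch synthesis genes that passed the limit.

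Genes induced when carbon runs short were lower in part. Of 24 genes, 7 were lower and none higher, with a median log2 ratio of -0.81, and without the *TT2* OE libraries 11 were lower. *DRM1* stood at 429, 549.5 and 518 CPM in the first round and 78.9, 95.8 and 109.6 CPM in the second (log2 ratio -2.40 ± 0.10). *DIN10* stood at 1144, 1552 and 1383 CPM in the first round and 251, 306 and 586 CPM in the second (log2 ratio -1.93 ± 0.18), and *BT2* at 269.5, 366 and 352 CPM in the first round and 58.3, 76.0 and 171 CPM in the second (log2 ratio -1.84 ± 0.19). In *DIN10* and *BT2* the second-round *TT2* OE library was the highest of its round, and it still lay below every first-round library. For *SEN1* and *ASN1*, the markers most used for dark-induced starvation, the rounds overlapped: *SEN1* stood at 155, 307 and 373 CPM in the first round and 111, 146 and 331 CPM in the second and *ASN1* at 372, 654 and 773 CPM in the first round and 269.7, 351 and 799 CPM in the second.

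Phenylpropanoid and flavonoid genes were all on the positive side. Of 21 genes kept, 11 were higher, none was lower, and all 21 had a log2 ratio above 0, with a median of 1.33. Over all 20003 genes kept, 9834 lay above 0. The enzymes that feed every branch were among them: *PAL1* stood at 74.7, 56.4 and 54.8 CPM in the first round and 283, 210.5 and 193 CPM in the second (log2 ratio 1.88 ± 0.08), *C4H* at 122, 116 and 114 CPM in the first round and 361, 333 and 329 CPM in the second (log2 ratio 1.54 ± 0.08) and *4CL1* at 78.0, 60.1 and 59.5 CPM in the first round and 282, 283 and 259.6 CPM in the second (log2 ratio 2.07 ± 0.10). The first-round levels were alike in the 3 genotypes for *C4H*. In the flavonoid branch *F3H* stood at 6.97, 6.66 and 9.90 CPM in the first round and 78.5, 62.9 and 66.2 CPM in the second (log2 ratio 3.15 ± 0.13), and *PAP1*, the MYB activator of anthocyanin synthesis, had a log2 ratio of 3.80 ± 0.53 at levels below 2 CPM. *TT4*, the chalcone synthase gene, differed among genotypes as well as rounds, at 18.9, 6.98 and 43.6 CPM in the first round and 73.6, 45.9 and 83.7 CPM in the second, and the second-round *MYB5* OE library lay close to the first-round *TT2* OE library.

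Genes of lignin monomer synthesis and of the methionine and methyl cycle, which supplies the methyl groups for it, were listed after their values had been seen. Of 8 lignin genes 6 were higher. *OMT1* stood at 323, 299 and 322 CPM in the first round and 979, 1080.3 and 902 CPM in the second (log2 ratio 1.65 ± 0.10) and *ATCAD4* at 78.1, 78.7 and 70.9 CPM in the first round and 309, 345 and 319.8 CPM in the second (log2 ratio 2.098 ± 0.09). Of 13 methyl cycle genes 4 were higher, and all 13 had a log2 ratio above 0, beside 9834 of all 20003 genes kept. *MS2*, a methionine synthase, stood at 80.4, 58.8 and 57.6 CPM in the first round and 1189, 1088 and 861 CPM in the second (log2 ratio 3.999 ± 0.11), and *SAHH2*, which clears the product of methylation, at 145, 103 and 114 CPM in the first round and 556, 534 and 466 CPM in the second (log2 ratio 2.11 ± 0.10). *ATMS1*, another methionine synthase gene, had a log2 ratio of 0.79 and was not 2-fold apart in every genotype.

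Heat shock factors and chaperones were measured in unstressed seedlings, and *HSFA2*, the factor that sustains the heat response, is central to the study. Of 20 genes kept 11 were higher and none lower, with a median log2 ratio of 1.17, and 8 further members had too few counts. *HSFA2* had 14, 18 and 11 counts in the first round and 157, 141 and 147 counts in the second. These correspond to 0.360, 0.442 and 0.231 CPM in the first round and 3.21, 3.25 and 3.86 CPM in the second (log2 ratio 3.33 ± 0.28). The rounds did not overlap, which the 2-fold rule makes likely, and the genotypes within a round lay within 2-fold of one another. *HSP70*, a cytosolic chaperone, stood at 17.2, 16.7 and 17.3 CPM in the first round and 288, 352 and 335 CPM in the second (log2 ratio 4.25 ± 0.10).

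Other members of the list varied. *MBF1C*, a heat-induced coactivator, stood at 4.63, 6.49 and 5.21 CPM in the first round and 14.6, 21.8 and 18.9 CPM in the second, and *HSP90.1* at 8.62, 10.02 and 9.06 CPM in the first round and 31.3, 31.5 and 39.8 CPM in the second. *HSP101*, the disaggregase needed for thermotolerance, had a log2 ratio of 1.44 ± 0.10, and *ROF2*, a peptidyl-prolyl isomerase induced by heat, one of 2.14 ± 0.11. *HSFA1A*, which activates *HSFA2* on heating, had one of 0.44 ± 0.10. *HSFA7A*, *HSFA3*, *HSP70B* and *HSP18.2* were not 2-fold apart in every genotype, with log2 ratios from -0.58 to 0.36. The list was thus not uniformly higher, and the small heat shock protein genes *HSP18.2*, AT5G37670, AT2G29500, AT1G07400 and *HSP17.6II* stood below 2 CPM in all 6 libraries. AT5G51440, annotated as an HSP20-like chaperone, was higher in the second round (log2 ratio 2.55 ± 0.16). It stood at 1.29, 1.82 and 1.37 CPM in the first round and 6.48, 9.84 and 9.86 CPM in the second.

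The sequence before the *HSFA2* start is shown because *HSFA2* is central to the study and its window holds site II elements (TGGGCC or TGGGCT, on either strand), which were rarer among genes higher in the second round than among all genes. It spans 250 bases of TAIR10.1 (chr2:11135374-11135623, plus strand), with its 3 site II elements in capitals, which start 198, 148 and 134 bases before the annotated start.
*HSFA2*: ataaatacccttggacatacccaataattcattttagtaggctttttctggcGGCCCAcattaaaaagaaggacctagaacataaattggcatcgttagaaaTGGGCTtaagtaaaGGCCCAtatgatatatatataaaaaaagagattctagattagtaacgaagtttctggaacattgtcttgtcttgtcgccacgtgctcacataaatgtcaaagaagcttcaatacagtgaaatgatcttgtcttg

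Rapidly induced genes of touch and wounding were higher in part, with 5 of 14 higher, 1 lower and a median log2 ratio of 0.69. *TCH4*, which loosens cell walls and responds to touch within minutes, stood at 48.5, 84.3 and 89.6 CPM in the first round and 553, 755 and 676 CPM in the second (log2 ratio 3.195 ± 0.12). *TCH2*, a calmodulin-like gene, stood at 16.3, 15.3 and 15.3 CPM in the first round and 85.5, 131 and 97.5 CPM in the second (log2 ratio 2.72 ± 0.12), and *TCH3* at 30.0, 45.3 and 46.3 CPM in the first round and 74.5, 192 and 199.8 CPM in the second. The zinc finger genes *ZAT10* and *ZAT12*, which respond to many stresses, had log2 ratios of 0.02 and 0.21. *CML38* was lower, at 1.62, 2.24 and 2.19 CPM in the first round and 0.388, 0.599 and 0.472 CPM in the second. The TCH genes therefore differed between rounds while *ZAT10* and *ZAT12* lay near 0.

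Growth-related families listed after their values had been seen showed a similar mixture. Of 26 xyloglucan endotransglucosylase genes 9 were higher and none lower, and of 23 expansin genes 5 were higher and 1 lower. *XTR6* stood at 3.63, 7.86 and 6.77 CPM in the first round and 42.2, 78.8 and 83.4 CPM in the second (log2 ratio 3.49 ± 0.10), and *EXLA1* at 42.9, 52.3 and 60.0 CPM in the first round and 152, 237 and 212 CPM in the second (log2 ratio 1.94 ± 0.10). Among 12 plasma membrane aquaporin genes, which let water into growing cells, *PIP2A* and *PIP3* were higher. *PIP2A* stood at 747, 695 and 654 CPM in the first round and 2198, 2224 and 2169 CPM in the second (log2 ratio 1.66 ± 0.10). Early auxin genes had 3 of 15 higher and none lower with a median of 1.15, and without the Col-0 libraries 9 were higher. *IAA6* stood at 0.875, 0.491 and 0.378 CPM in the first round and 3.43, 5.37 and 5.77 CPM in the second (log2 ratio 3.06 ± 0.31). The *SAUR19* to *SAUR24* genes of that list are close tandem copies whose reads may be split unevenly.

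Hormone synthesis genes were mixed as well. *GA20OX1*, which makes gibberellin precursors, stood at 1.05, 1.06 and 0.925 CPM in the first round and 4.29, 4.82 and 5.01 CPM in the second (log2 ratio 2.22 ± 0.19), and the gibberellin receptor gene *GID1A* at 40.0, 40.1 and 36.9 CPM in the first round and 16.4, 13.7 and 16.5 CPM in the second (log2 ratio -1.33 ± 0.10). The brassinosteroid enzyme gene *CPD* had a log2 ratio of -0.96 and stayed within 2-fold in *TT2* OE. Of 9 genes in the list, 2 were higher and 1 was lower, and with scaling by total counts alone 1 was higher.

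Cold acclimation genes leaned to the negative side, with 5 of 14 lower, 1 higher and a median log2 ratio of -0.28. The CBF factors start cold acclimation. *CBF2* stood at 1.62, 1.94 and 1.51 CPM in the first round and 0.429, 0.369 and 0.498 CPM in the second and *CBF3* at 2.13, 1.47 and 1.70 CPM in the first round and 0.306, 0 and 0.210 CPM in the second. *CBF1* had 69 counts over the first-round libraries and 0 over the second-round libraries, so it was at least 23.603-fold lower when 3 counts over the round are taken as the floor. *COR15B*, a chloroplast protein made in the cold, stood at 10.3, 10.7 and 7.78 CPM in the first round and 0.674, 0.530 and 0.341 CPM in the second (log2 ratio -4.21 ± 0.18), whereas *COR15A* had a log2 ratio of -0.26. The levels of all CBF genes were low in both rounds.

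Iron uptake had 3 of 14 genes higher and none lower. *IRT1*, the root iron transporter, stood at 13.1, 27.3 and 16.3 CPM in the first round and 96.8, 78.6 and 67.3 CPM in the second (log2 ratio 2.14 ± 0.19), and *FRO2*, the ferric reductase, at 4.48, 8.03 and 5.97 CPM in the first round and 40.0, 39.1 and 34.1 CPM in the second (log2 ratio 2.63 ± 0.14). Their activator *FIT* had a log2 ratio of 0.63, and the ferritin genes *FER1* and *FER4*, for iron storage, had 0.94 and -0.76. Nitrate uptake and assimilation had none of 18 genes beyond 2-fold in every genotype and a median log2 ratio of -0.09. *NIA1*, a nitrate reductase, stood at 661, 965 and 863 CPM in the first round and 274, 479 and 669.6 CPM in the second. Sulfate uptake had 1 of 13 genes higher, the ATP sulfurylase gene AT3G22890 (log2 ratio 1.09 ± 0.08), and a median of 0.01. With scaling by total counts alone that gene missed the limit and the median lay below 0. Nutrient groups thus lay near the level of all genes apart from the iron uptake genes of the root surface.

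Aliphatic glucosinolates are sulfur-rich defence compounds. Of 21 genes kept 6 were higher and none lower, with a median log2 ratio of 1.32, and without the Col-0 libraries 11 were higher. *MYB28*, their main activator, stood at 22.0, 18.5 and 22.7 CPM in the first round and 54.0, 55.9 and 48.2 CPM in the second (log2 ratio 1.32 ± 0.10), and *SOT17* at 1.54, 1.18 and 1.28 CPM in the first round and 4.29, 10.3 and 5.82 CPM in the second. For several enzymes 1 library stood out: *MAM1* stood at 0.514, 1.72 and 1.16 CPM in the first round and 0.368, 9.79 and 2.88 CPM in the second and *CYP83A1* at 0.309, 1.47 and 0.757 CPM in the first round and 0.511, 8.48 and 2.54 CPM in the second. In both genes the second-round *MYB5* OE library was the highest of all 6, and the second-round Col-0 library lay within or below the first-round range. Without the *MYB5* OE libraries the log2 ratio of *IPMI1* was 1.06 in place of 1.98.

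Jasmonate genes leaned to the positive side, with 19 of 21 above 0, a median log2 ratio of 0.53, 4 higher and 1 lower. Among all 20003 genes kept, 9834 were above 0. *JAZ9*, a repressor of jasmonate signalling, was higher, at 13.6, 13.2 and 18.3 CPM in the first round and 51.3, 50.001 and 60.7 CPM in the second (log2 ratio 1.85 ± 0.09). *AOC2*, an enzyme of jasmonate synthesis, was the 1 gene lower, at 64.8, 73.7 and 82.3 CPM in the first round and 22.9, 25.5 and 23.52 CPM in the second (log2 ratio -1.61 ± 0.09). *AOC1*, another allene oxide cyclase gene, was higher (log2 ratio 1.42 ± 0.13). Salicylate defence had 1 of 12 higher and 1 lower, with 7 above 0 and a median log2 ratio of 0.16. *EDS5*, which exports the salicylate precursor from the plastid, was the gene higher, at 3.65, 3.49 and 3.01 CPM in the first round and 7.86, 7.26 and 6.66 CPM in the second (log2 ratio 1.103 ± 0.13), and it missed the limit with scaling by total counts alone. *ICS1*, which makes that precursor, *PR5*, *EDS1* and *PAD4* had log2 ratios of 0.91, 1.16, 0.52 and 0.44 and were not 2-fold apart in every genotype. *SARD1*, an activator of *ICS1*, was the gene lower (log2 ratio -1.58 ± 0.36). *PR1*, a common marker, stood at 0.617, 2.97 and 0.0210 CPM in the first round and 0.123, 0.853 and 0 CPM in the second, so that the rounds overlapped. *MYC2*, the main transcription factor of jasmonate signalling, had a log2 ratio of 0.00.

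Cell division and ribosome genes went in opposite directions by less than 2-fold in most cases. All 9 mitotic genes had negative log2 ratios, from -1.02 for *CDKB2;2* to -0.50 for *CYCB1;2*, with a median of -0.81, and none passed the 2-fold limit in every genotype. *KNOLLE*, which forms the new cell plate, stood at 10.6, 11.7 and 10.4 CPM in the first round and 6.23, 4.79 and 5.85 CPM in the second. All 8 ribosome biogenesis genes had positive log2 ratios with a median of 0.84, and 3 were higher. Of all 20003 genes kept, 9834 had a positive and 10169 a negative log2 ratio. *NOP56*, a nucleolar protein, stood at 56.8, 53.9 and 64.8 CPM in the first round and 145, 149.6 and 164 CPM in the second (log2 ratio 1.39 ± 0.08). With scaling by total counts alone only 1 of the 8 passed the limit.

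**Figure D4:**
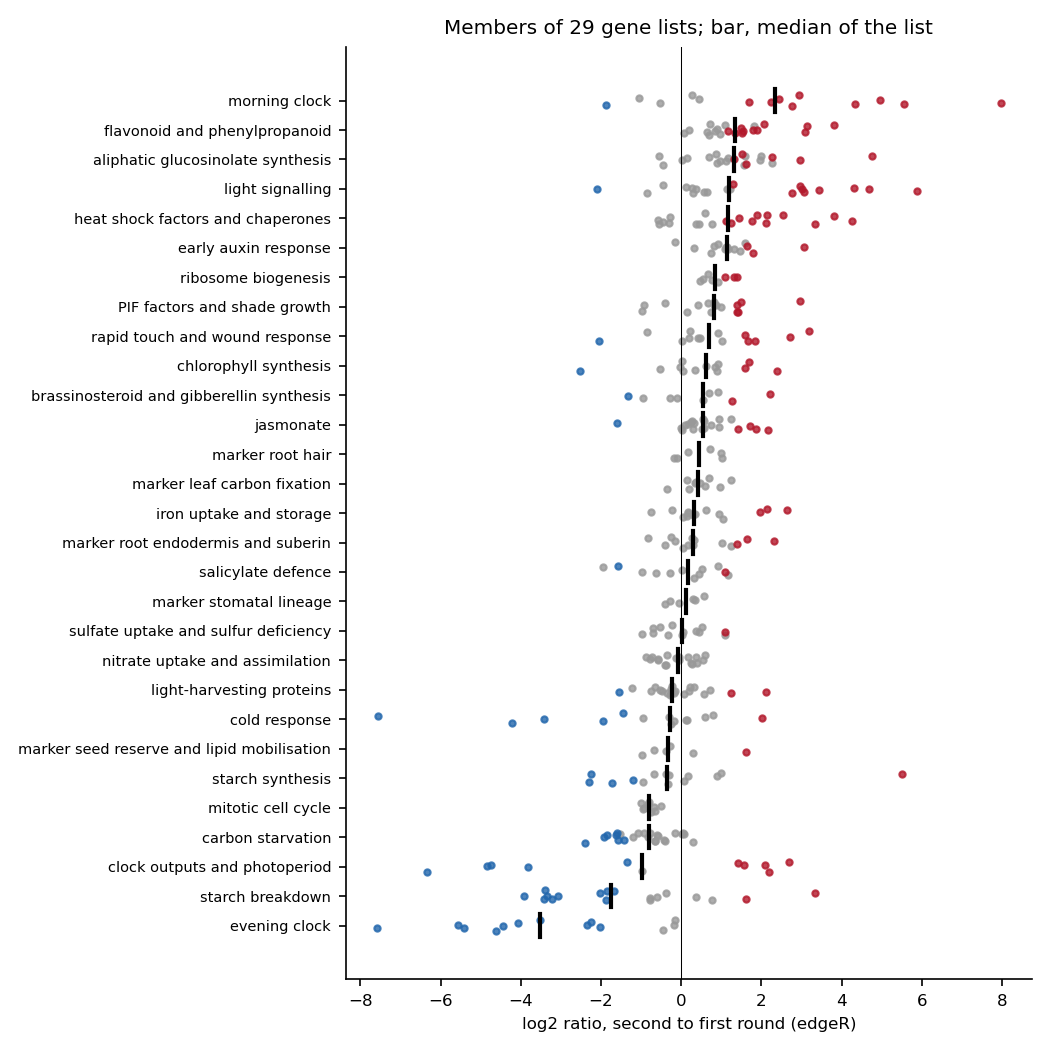
Log2 ratio of the second to the first round (horizontal axis) for the kept members of 29 gene lists, 1 point per gene; red points are at least 2-fold higher and blue points at least 2-fold lower in every genotype, grey points are neither, and the black bar is the median of the list. Morning clock genes have the highest median (2.34) and evening clock genes the lowest (-3.52), followed by starch breakdown (-1.76), while nitrate and sulfate genes centre on 0.

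Beyond the lists, the genes with the largest positive log2 ratios at a mean level of 5 CPM or more were *LHY*, *ASG4*, *COL2*, *CCA1*, *GBSS1*, *ERD9*, *RVE8*, *GDPD6*, AT1G65490 and AT3G54510. *ASG4*, a relative of *RVE8*, stood at 0.231, 0.147 and 0.0631 CPM in the first round and 9.07, 12.4 and 9.26 CPM in the second (log2 ratio 6.13 ± 0.26). *ERD9*, a glutathione S-transferase gene, stood at 5.12, 3.44 and 2.82 CPM in the first round and 147, 138 and 121 CPM in the second (log2 ratio 5.18 ± 0.12), and *GDPD6*, a glycerophosphodiester phosphodiesterase gene, had a log2 ratio of 4.72. Of these 10 genes, *LHY*, *CCA1*, *RVE8* and *COL2* belong to the clock and B-box groups described above, and *GBSS1* to the starch synthesis list.

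The genes with the most negative log2 ratios were AT2G39920, *FKF1*, AT5G62360, AT5G23240, AT4G33980, AT1G11210, AT1G17665, *ELF4*, AT4G34950 and *PRR5*. AT2G39920, annotated as an acid phosphatase of the HAD superfamily, had 1354 counts in the first round and 1 in the second, a ratio of 1389 with an exact 95% interval of 249 to 54921. AT5G23240, annotated as a DNAJ heat shock protein, stood at 68.8, 82.4 and 76.5 CPM in the first round and 0.552, 0.830 and 0.918 CPM in the second (log2 ratio -6.65 ± 0.13), and AT5G62360, annotated as a pectin methylesterase inhibitor, at 111, 112 and 132 CPM in the first round and 0.531, 1.31 and 0.446 CPM in the second (log2 ratio -7.27 ± 0.22). AT4G34950, of the major facilitator superfamily, stood at 151, 129 and 155 CPM in the first round and 3.105, 3.39 and 3.199 CPM in the second. Most of these genes have no symbol in the RefSeq annotation.

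Among the genes higher in the second round, those with the largest mean CPM were *LHCB2.2*, *GLDP1*, *FBA2*, *HSC70-1*, *CAT2*, *PIP2A*, *SAMDC*, AT4G16980, *LHCB2.3* and AT1G09310. *GLDP1* encodes a subunit of glycine decarboxylase, which recycles the product of photorespiration, and stood at 1873, 1526 and 1716 CPM in the first round and 4409, 4582 and 4547 CPM in the second (log2 ratio 1.41 ± 0.12). The Calvin cycle aldolase gene *FBA2* stood at 1816, 1796 and 1875 CPM in the first round and 3723, 4532 and 4173 CPM in the second, and *SAMDC*, of polyamine synthesis, at 617, 788 and 813 CPM in the first round and 1878, 1812 and 2346 CPM in the second. Of 14 photorespiration genes, listed after their values had been seen, only *GLDP1* and its homologue *GLDP2* were higher and none was lower.

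Among the genes lower, those with the largest mean CPM were *LHCB1.4*, *THI1*, AT1G13930, *GER3*, AT2G33830, *DIN10*, AT2G37220, *FNR2*, *GRP7* and AT1G54410. *THI1*, which makes the thiazole ring of vitamin B1, stood at 3303, 3316 and 2567 CPM in the first round and 1209, 1060.0 and 1050.2 CPM in the second (log2 ratio -1.46 ± 0.11). *FNR2*, which passes electrons from ferredoxin to NADP, stood at 1482, 1394 and 1419 CPM in the first round and 233, 268 and 232 CPM in the second (log2 ratio -2.55 ± 0.11), and AT2G33830, annotated as dormancy and auxin associated, at 1544, 1879 and 1785 CPM in the first round and 106, 111 and 151 CPM in the second (log2 ratio -3.84 ± 0.13). The rounds did not overlap for any of these 3 genes, which the 2-fold rule makes likely. *GER3*, a germin-like protein gene, had a log2 ratio of -1.80.

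The third round, which the comparison did not use, placed these genes in different ways. Its hour of harvest is not given either. Of the 1070 genes higher in the second round, 65.2% lay between the first and the second round in the third-round Col-0 library, 22.5% lay beyond the second round and 12.2% lay below the first. In *TT2* OE the shares were 63.7%, 21.9% and 14.4%. Of the 696 genes lower, 40.9% in Col-0 and 34.2% in *TT2* OE lay beyond the second round, and 2.59% and 3.59% had returned past the first. Genes beyond the second round in both genotypes numbered 184 of those higher and 179 of those lower.

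Morning clock genes mostly lay beyond the second round. For 8 of the 9 higher, both third-round libraries exceeded every second-round library. *LHY* reached 1058 CPM in Col-0 and 986 CPM in *TT2* OE and *CCA1* 695 CPM in Col-0 and 679 CPM in *TT2* OE. Of the 11 B-box genes higher, 10 did the same, and *BBX32* reached 49.3 CPM in Col-0 and 51.1 CPM in *TT2* OE. *RVE2*, lower in the second round, stood at 25.7 CPM in Col-0 and 27.5 CPM in *TT2* OE in the third, above its first-round levels.

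Most evening genes stayed low in the third round. *TOC1* stood at 21.03 CPM in Col-0 and 23.9 CPM in *TT2* OE and *PRR5* at 5.33 CPM in Col-0 and 3.85 CPM in *TT2* OE, close to the second round, and *FKF1* at 0.193 CPM in Col-0 and 0.136 CPM in *TT2* OE. None of the 10 evening genes lower had returned to its first-round range. *JMJD5* came nearest, at 12.2 CPM in Col-0 and 13.1 CPM in *TT2* OE against 13.4, 15.5 and 13.7 CPM in the first round. Of the 10 starch breakdown genes lower, 6 had both third-round libraries below every second-round library, *AMY3* at 21.5 CPM in Col-0 and 22.4 CPM in *TT2* OE among them.

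A further set was high in the second round alone. *MS2* stood at 49.7 CPM in Col-0 and 34.6 CPM in *TT2* OE in the third round and *TCH4* at 12.9 CPM in Col-0 and 14.8 CPM in *TT2* OE, both below all first-round libraries. The touch genes behaved alike, with 4 of the 5 higher back within or below the first-round range, and so did 4 of 5 expansin genes and 3 of 4 methyl cycle genes. In other lists the genes back were 2 of 3 early auxin, 4 of 9 xyloglucan endotransglucosylase and 2 of 6 lignin genes higher. They were 2 of 11 heat shock and 1 of 11 flavonoid and phenylpropanoid genes. The share over all genes higher was not taken by this measure, so nothing is read from these counts. *OMT1* stood at 229 CPM in Col-0 and 202 CPM in *TT2* OE, *EXLA1* at 8.43 CPM in Col-0 and 9.96 CPM in *TT2* OE and *IAA6* at 0.449 CPM in Col-0 and 0.651 CPM in *TT2* OE. *HSFA2* stood at 0.899 CPM in Col-0 and 2.12 CPM in *TT2* OE, both between the first- and second-round levels. *MS2*, *TCH4*, *OMT1*, *EXLA1* and *IAA6* were therefore high in the second round and not in the third, unlike *LHY* and *CCA1*. *RVE2* and *JMJD5* were likewise set apart in the second round, but as lower.

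**Figure D5:**
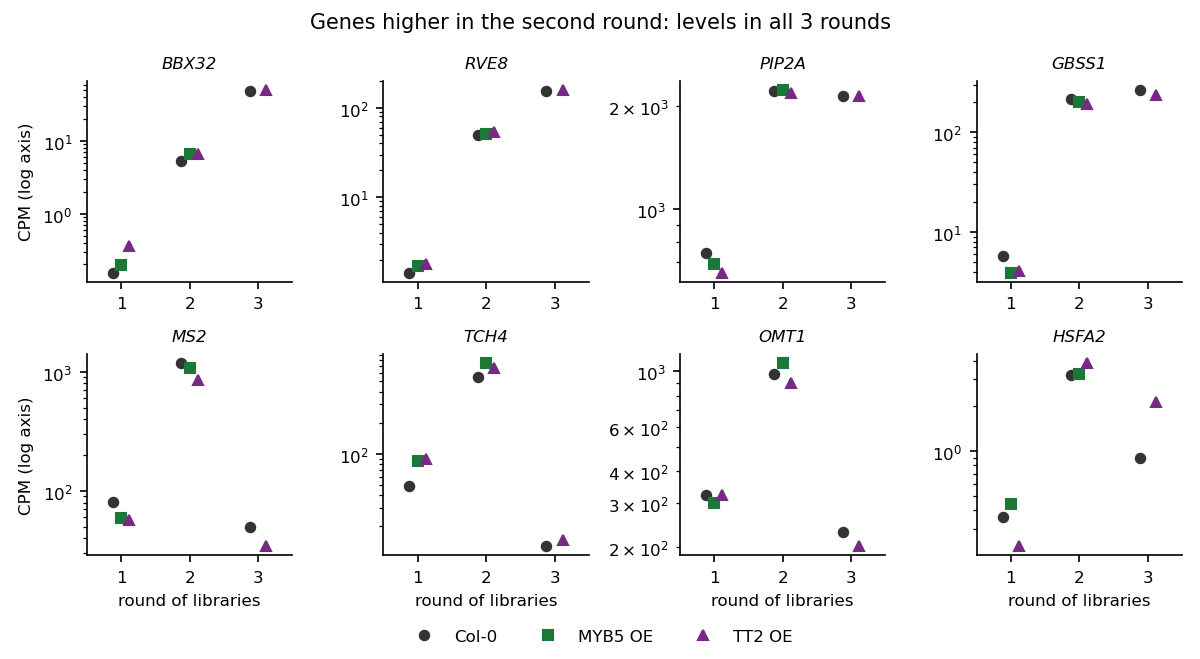
Levels in CPM (logarithmic vertical axes, a separate scale per gene) of 8 genes higher in the second round, in all 3 rounds of libraries; black circles are Col-0, green squares MYB5 OE and purple triangles TT2 OE, 1 library each. BBX32 and RVE8 are higher still in the third round, PIP2A and GBSS1 stay near or above their second-round levels, MS2, TCH4 and OMT1 return below their first-round levels, and HSFA2 lies between the first and second rounds.

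Markers of organs and stages were compared as well, because whole seedlings hold many tissues. In bulk RNA of this kind, fewer cells of a type and less RNA per cell cannot be told apart. Leaf carbon fixation genes had none of 10 beyond 2-fold in every genotype, and their summed level was 29195 to 30652 CPM in the first round and 41105 to 48218 CPM in the second. Root hair markers, none of 6 beyond 2-fold, summed to 71.0 to 82.1 CPM and 126 to 150.4 CPM. Root endodermis and suberin markers had 3 of 14 higher (*CYP86B1*, *FAR5* and *GPAT5*) and summed to 154 to 179 CPM and 160 to 227 CPM. Stomatal lineage markers, none of 6 beyond 2-fold, summed to 36.3 to 38.6 CPM and 36.7 to 46.8 CPM.

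Seed reserve and lipid mobilisation markers, 6 of 14 kept, summed to 614 to 875 CPM in the first round and 436 to 708 CPM in the second. *PAP85* was the 1 member higher, at 0.180, 0.418 and 1.37 CPM in the first round and 0.797, 1.31 and 3.54 CPM in the second, and *PCK1*, which turns seed lipid carbon into sugar, stood at 386, 471 and 504 CPM in the first round and 223, 187 and 291 CPM in the second. Root and leaf markers were both present in every library, which is what the whole-seedling label implies. The part that these shifts in organ and stage markers have in the gene differences above was not tested.

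Gene length and position differed little between the groups. The median transcript length was 1746 bases for all genes kept, 1676.5 bases for genes higher and 1625 bases for genes lower. The share of genes higher ran from 4.91% to 5.76% over the 5 chromosomes and the share lower from 2.97% to 3.78%. The median level was 18.1 CPM for genes higher, 13.8 CPM for genes lower and 14.3 CPM for all genes kept.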

How the data were processed

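RNA was measured in 8 libraries of whole seedlings, made with a directional kit and sequenced as read pairs, and the authors mapped and counted reads in CLC Genomics Workbench against TAIR 10. The deposited gene counts of 8 libraries were used as given. A further 24 columns of normalized values were not used, nor were 4 columns of 1 library that matches no sample. Genes of the chloroplast and mitochondrion numbered 0 in the table. Genotypes and library codes came from the labels.

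Counts were filtered with filterByExpr, scaled by TMM and given as CPM. For each genotype the second-minus-first difference was taken in log2 CPM (prior count 2), and a gene was called at 2-fold or more in all 3. Log2 ratios with standard errors came from edgeR 4.0.16 (quasi-likelihood, R 4.3.3), with genotype and round as terms, which leaves 2 residual degrees of freedom. With 1 library per genotype and round, no difference between genotypes in the effect of round could be tested. No p-value is given for a difference between rounds. Standard errors come from the fit, which draws the spread of each gene towards that of all genes (10.2 prior degrees of freedom). They cover these libraries only and do not measure variation between further rounds. The fit was tested on simulated data. Exact intervals cover counting error only.

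The rounds, members and lists were chosen with earlier results of these data known. Genes to name were drawn from all clock genes kept, up to 5 members of each other list averaging 1 CPM or more and with the largest log2 ratios, the 10 genes with the largest and smallest ratios among those averaging 5 CPM or more, and the 10 with the largest mean CPM in each direction. Not every gene so drawn is printed. Further list members, and 7 lists, were chosen after their values were seen. Sequences came from the RefSeq genome TAIR10.1, whose annotation held 28009 of the 28496 genes. Alternatives covered scaling, filters, the fold limit, prior count, test, samples and promoter length.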

Additional observations from a re-analysis of the deposited data

How the results depend on the processing

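The counts of genes 2-fold apart in every genotype depended on the fold limit: at 1.5-fold 2400 genes were higher and 1870 lower, and at 4-fold 207 and 185, because the limit itself sets the number. With total counts alone as scaling the median log2 ratio over all genes was -0.11 in place of -0.01, and 874 genes were higher and 839 lower. With 1 library and its pair left out, 1139 to 1305 genes were higher and 775 to 925 lower, since only 2 genotypes then had to pass. The number of lists with a median of at least 1 in size was 8, and 7 to 11 with a library left out. The share of genes with the evening element, relative to all genes, was 5.13 for genes lower and 0.602 for genes higher. Over the nearer part of the window it was 7.11 and 0.285, and for genes 4-fold lower it was 7.84, where the cause was not tested. Under total counts alone the members higher numbered 1 of 8 in ribosome biogenesis, in place of 3, and 0 in place of 1 in the sulfate and salicylate lists. Of 128 named genes 2-fold apart, 0 changed direction under the 13 settings tried. These genes were picked as 2-fold apart in all 3 genotypes of the same libraries, which all but fixed that outcome. Nothing is read from it. No paired analysis was possible with replicate number as a block beyond genotype, because that number equals the round in every library. The comparison itself is paired by genotype, since it matches the libraries of the rounds by genotype. With 1 library per genotype in each round, genes near 0 counts are limited by depth, and the hour of harvest, which is not given, cannot be told apart from the round.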

Other observations

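One gene chosen after its values were seen was near absent from 1 library. AT1G29952 stood at 5.92, 4.89 and 5.80 CPM in the first round, at 4.56 CPM in Col-0, 0.0230 CPM in *MYB5* OE and 5.98 CPM in *TT2* OE in the second, and at 8.69 and 10.02 CPM in the third-round Col-0 and *TT2* OE libraries.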
